A study of Homo sapiens with 6 samples.

Results

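The genes described here are 31 chaperones, folding enzymes, degradation factors and stress regulators of the endoplasmic reticulum (ER), taken by symbol from a count table of 19395 genes. All 31 symbols were found, and 30 had enough counts to be tested. The table comes from polyadenylated RNA of 6 libraries labelled as DLD-1, an established human colorectal adenocarcinoma line. The 3 oeTNFRSF12A libraries carry the genotype label TNFRSF12A overexpression and came from cells given doxycycline at 0.1 µg/mL for 48 h to induce the receptor. The 3 oeControl libraries are labelled WT and untreated, so receptor induction and exposure to doxycycline cannot be told apart. Both groups were grown in RPMI-1640 with fetal bovine serum. The labels give neither the promoter of the construct, nor whether the induced line is 1 clone, nor whether the control cells carry a construct, nor whether replicates were separate cultures. The p-values therefore rest on the spread among these libraries alone, and that spread may be technical.

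Library totals were 18154839 to 18406885 counts, and TNFRSF12A itself, the receptor for the cytokine TWEAK, had a 3.00-fold higher level under induction. The libraries did not carry the marker profile of the labelled cell type. Of 12 colorectal epithelial markers, 3 (KRT8, KRT18 and CDH1) reached 1 CPM (a count scaled by library size) in all 6 libraries. EPCAM had 13 counts over the 6 libraries together, and CDX1, CEACAM5 and MUC2 had 0. The summed level of these 12 markers was 337 to 342 CPM in the controls and 321 to 334 CPM in the oeTNFRSF12A libraries. Most of it was KRT8 (log2 fold change -0.08, edgeR adjusted p = 0.0444) and KRT18 (0.06, edgeR adjusted p = 0.139), while CDH1, which encodes E-cadherin, fell by 47.2% (-0.92, edgeR adjusted p = 3.06e-09). The summed level of 7 fibroblast and stromal markers was 1552 to 1661 CPM in the controls and 1111 to 1157 CPM in the oeTNFRSF12A libraries, nearly all of it from COL1A1, COL1A2 and COL3A1, while DCN and LUM had 0 counts. COL1A1 (-0.85 on the log2 scale, edgeR adjusted p = 3.95e-14) and COL1A2 (-0.35, edgeR adjusted p = 7.18e-10) were lower, and COL3A1 was higher (0.23, edgeR adjusted p = 4.20e-04). These marker levels differ between the same groups as the genes described here, and their part in those differences was not tested. In bulk RNA, fewer cells of a type and less RNA per cell cannot be told apart.

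Proteins that enter the secretory pathway are threaded into the ER lumen through the SEC61 translocon, folded there by the HSP70 chaperone BiP (HSPA5), the HSP90 chaperone GRP94 (HSP90B1), the sugar-binding chaperones calnexin and calreticulin and the protein disulfide isomerases, and returned to the cytosol for destruction when folding fails. That last route, ER-associated degradation (ERAD), depends on mannose-trimming EDEM proteins, the HRD1 ubiquitin ligase (SYVN1) and its scaffold SEL1L, and the derlins. When unfolded protein accumulates, the sensors IRE1 (ERN1), ATF6 and PERK (EIF2AK3) start the unfolded protein response: IRE1 splices XBP1 mRNA into the form that encodes an active transcription factor, ATF6 is cut to free another, and PERK slows translation and favours ATF4. The gene counts used here do not separate the spliced from the unspliced XBP1 transcript.

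Active ATF6 and XBP1 are known to act through the ER stress response element (ERSE), which is CCAAT and CCACG separated by 9 bases, and through ERSE-II, which is ATTGG and CCACG separated by 1 base. Exact matches were searched on both strands from 250 bases before to 50 bases after the RefSeq transcript start (GRCh38.p14), for the 28 genes of the set that matched a RefSeq promoter by symbol. The ERSE was present in 6 of the 28 windows (21.4%) and in 27 of 35116 windows of all genes (0.0769%), or 14 of 10445 windows of tested genes (0.134%). ERSE-II was present in 3 of the 28 (10.7%) and in 19 of 35116 (0.0541%), or 10 of 10445 of tested genes (0.0957%). The set was assembled by role in the ER and its stress response, and these are the known elements of that response. The contrast in shares was therefore built into the choice of genes and is not a result of these libraries. Both motifs contain CCACG, which by itself occurred in 67.9% of the windows of the set, 38.1% of all windows and 49.7% of those of tested genes, and the letters of ERSE and ERSE-II did not overlap in any gene, since no gene held both. The matches are shown because they mark which of these genes carry the canonical element. They are written 5′ to 3′ on the strand that reads the motif, with the fixed bases in capitals and the spacer in lower case:
HSPA5: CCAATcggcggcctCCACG
HSP90B1 upstream: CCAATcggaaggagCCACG
HSP90B1 downstream: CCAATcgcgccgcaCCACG
CRELD2: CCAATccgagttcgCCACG
CALR: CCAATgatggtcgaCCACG
CANX: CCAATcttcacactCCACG
XBP1: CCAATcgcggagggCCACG
HYOU1 upstream: ATTGGaCCACG
HYOU1 downstream: ATTGGaCCACG
SDF2L1: ATTGGtCCACG
HERPUD1: ATTGGgCCACG

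The first 7 lines are ERSE and the last 4 are ERSE-II. The spacers of the 7 ERSE matches differ from each other, whereas the repeated ERSE-II of HYOU1 is the same sequence at both places. Counted from the transcript start, the HSPA5 match lies at -66 to -48, the HSP90B1 matches at -194 to -176 and -89 to -71, and the XBP1 match at -52 to -34. The 250 bases before the RefSeq start are given for HSP90B1, which rose, and XBP1, which fell. They are on the strand of each gene, with the fixed bases of their matches in capitals. In HSP90B1 the downstream match reads on the opposite strand, so it appears as its reverse complement. The HSP90B1 stretch is chr12:103930160-103930409 on the plus strand and the XBP1 stretch is chr22:28800570-28800819 on the minus strand (GRCh38.p14). Gene models of GENCODE release 29 start elsewhere, at 103930107 for HSP90B1, upstream of its stretch, and at 28800597 for XBP1, within its stretch.
HSP90B1: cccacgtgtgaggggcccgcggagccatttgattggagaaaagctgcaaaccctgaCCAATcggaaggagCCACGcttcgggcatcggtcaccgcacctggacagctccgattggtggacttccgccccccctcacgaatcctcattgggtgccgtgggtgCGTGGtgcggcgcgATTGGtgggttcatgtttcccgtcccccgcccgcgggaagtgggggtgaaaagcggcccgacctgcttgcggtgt
XBP1: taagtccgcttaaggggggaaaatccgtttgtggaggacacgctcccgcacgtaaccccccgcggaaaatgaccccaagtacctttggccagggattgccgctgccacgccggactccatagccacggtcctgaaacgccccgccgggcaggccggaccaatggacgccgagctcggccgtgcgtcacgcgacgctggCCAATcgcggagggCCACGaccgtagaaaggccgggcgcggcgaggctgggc

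Genes with a match did not all move the same way. Of the 9 genes with either element, 4 were called higher in the oeTNFRSF12A libraries (HSPA5, HSP90B1, HYOU1 and SDF2L1), 3 were called lower (CANX, XBP1 and HERPUD1), and CRELD2 and CALR did not pass the test. Over all tested genes 21.2% were called higher and 21.1% lower, and of the 30 tested genes of the set 13 and 7. Whether genes with a match are called more often was not tested. A match is a description of these letters and does not show that a factor binds there.

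**Figure D1:**
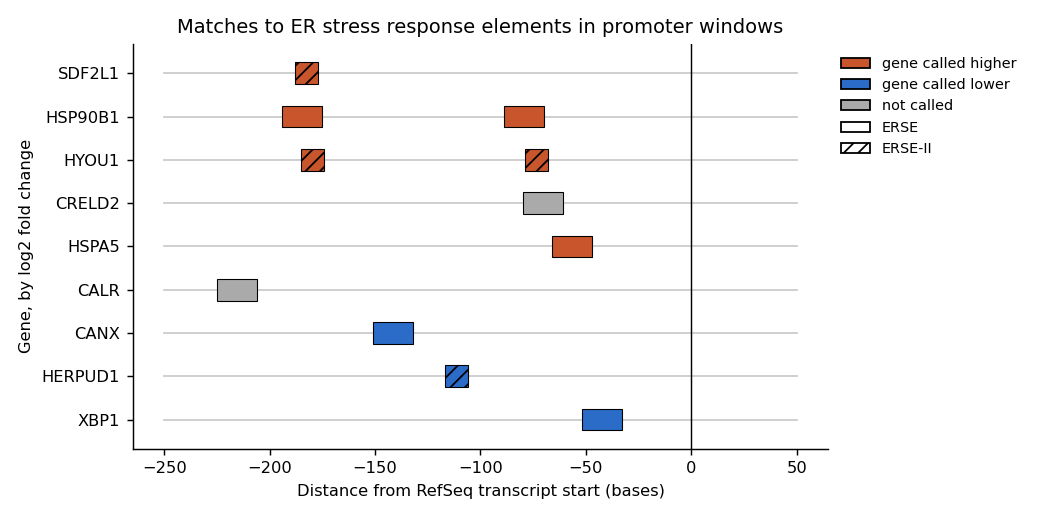
Position of exact ERSE (plain) and ERSE-II (hatched) matches in bases from the RefSeq transcript start for the 9 genes that hold either, ordered by log2 fold change, with grey lines for the searched window. Colour gives the call of the gene, 4 higher, 3 lower and 2 not called, and matches occur in all 3 classes. Over all tested genes 21.2% were called higher and 21.1% lower.

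Across the whole set the differences were frequent and small. Of the 30 tested genes 20 passed the test (adjusted p under 0.05, edgeR's quasi-likelihood F test, Benjamini-Hochberg over 12758 genes). In the oeTNFRSF12A libraries 13 of them rose and 7 fell. Over all tested genes 42.3% were called, 21.2% higher and 21.1% lower. Among genes at least as abundant as SDF2L1, the least abundant tested gene of the set at a mean of 9.61 CPM, 46.1% were called. That cutoff does not match the genes for abundance: the median of the mean CPM was 97.4 in the set and 30.9 over all tested genes. Only 3 of the 30 were both called and changed by at least 1.2-fold (DNAJB11 upward, EDEM2 and ERN1 downward), against 19.8% of all tested genes, 7.32% upward and 12.5% downward. The median log2 fold change of the 30 was 0.09, beside 0.00 over all tested genes, and the values ran from -0.50 for EDEM2 to 0.28 for DNAJB11. The CPM values of induced and control libraries were fully separated for 23 of the 30, 15 above the controls and 8 below, against 51.3% of all tested genes in either direction. Without oeTNFRSF12A replicate 3, the library farthest from the others of its group, 13 were higher and 7 lower.

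**Figure D2:**
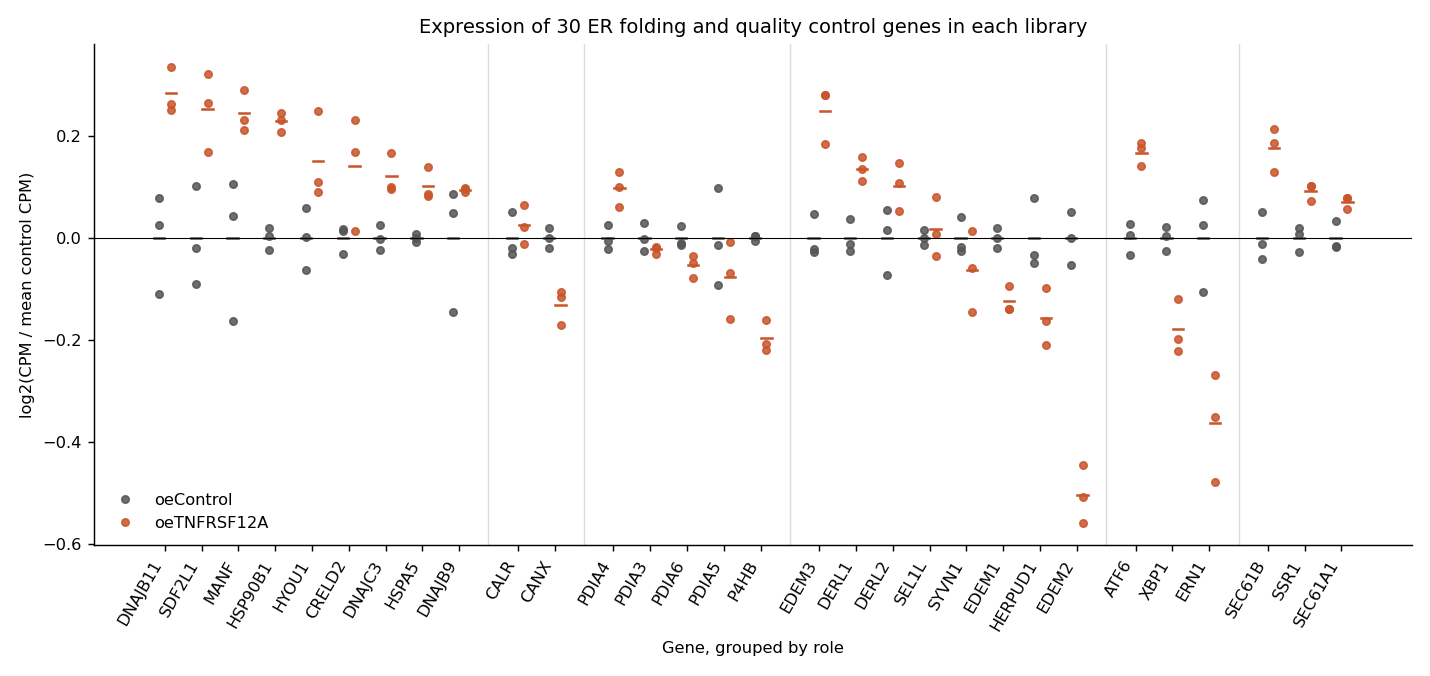
Expression of the 30 tested genes in each of the 6 libraries as log2 of CPM over the mean control CPM, grouped by role from left to right as lumenal chaperones, calnexin cycle lectins, disulfide isomerases, ERAD, stress regulators and translocon. Points are libraries and short lines are group means. The oeTNFRSF12A means of all 9 lumenal chaperones lie above 0, and EDEM2 at -0.50 lies lowest.

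The set spans a wide range of transcript abundance. Scaled to kilobases of annotated exon, calreticulin and GRP94 were the most abundant, at 504 ± 15.6 and 448 ± 6.91 CPM per kilobase in the controls (mean ± SD, n = 3), followed by P4HB at 351 ± 1.38, CANX at 322 ± 4.41 and HSPA5 at 178 ± 1.02. In the oeTNFRSF12A libraries GRP94 stood at 525 ± 7.08 and calreticulin at 513 ± 13.7 CPM per kilobase, and their ranges overlapped there, while in the controls they did not. Among the regulators XBP1 had 34.8 ± 0.57 CPM per kilobase in the controls and ranked 11 of the 30 detected genes, ATF6 had 15.96 ± 0.336 and ranked 20, and ERN1 had 2.33 ± 0.148 and was the lowest. Of the 29 pairs of neighbours in the control order 10 had overlapping ranges over the 3 libraries: SEC61A1 and PDIA4, XBP1 and MANF, MANF and HYOU1, EDEM2 and ATF6, ATF6 and HERPUD1, HERPUD1 and DNAJC3, CRELD2 and SDF2L1, SDF2L1 and PDIA5, PDIA5 and DERL2, and SYVN1 and DNAJB9. Exon sequence is shared with another gene model by 18 of the 31 genes. DERL3, the derlin of professional secretory cells, had 0 counts in every library, which allows a level of up to 0.0274 CPM (3 counts over the 6 libraries, counting error only). SMARCB1 on the opposite strand covers 2923 of the 3796 bp of its exons, so reads from DERL3 may have been assigned elsewhere, which was not tested.

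**Figure D3:**
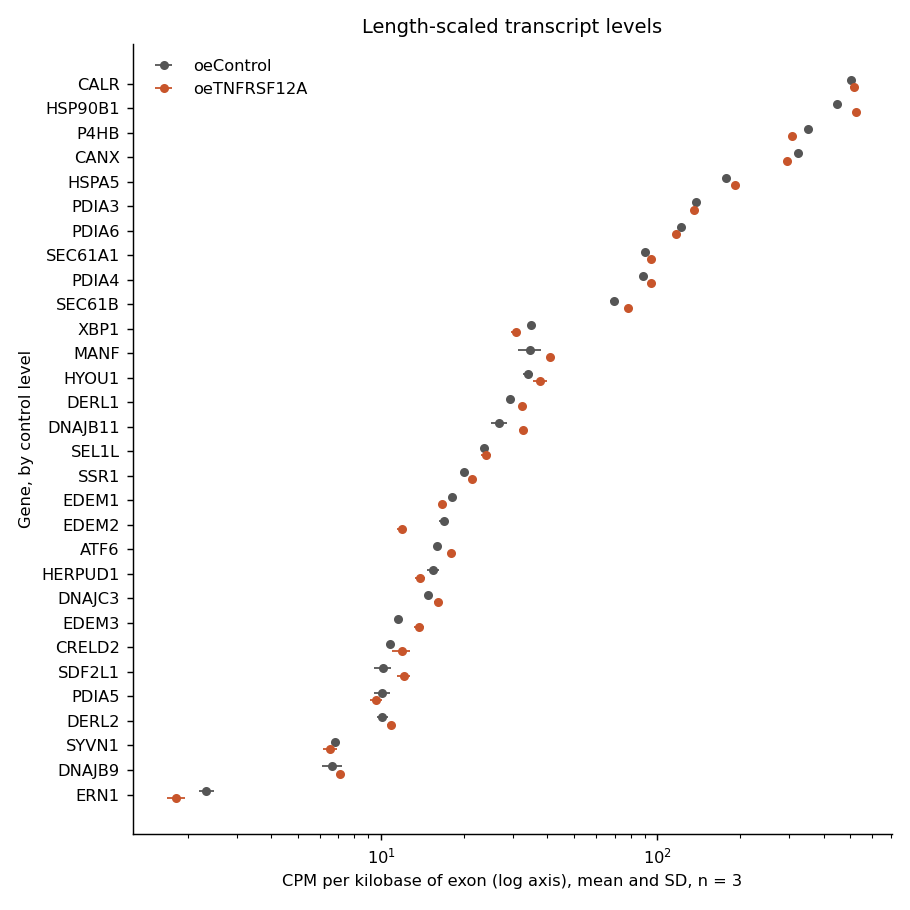
Transcript level of the 30 detected genes as CPM per kilobase of annotated exon on a log axis, ordered by the control mean, with points for the mean and bars for the SD of 3 libraries per group. The genes run from ERN1 at 2.33 ± 0.148 to CALR at 504 ± 15.6 CPM per kilobase in the controls, and the shift between groups is small beside this range.

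Of the 9 lumenal chaperones and co-chaperones 7 rose, 0 fell and 2 did not pass, with a median log2 fold change of 0.15, beside 21.2% higher over all tested genes. The count that rose was 5 with DESeq2 and 5 to 7 when each library was left out in turn. HSP90B1, the ER form of HSP90 that folds integrins and Toll-like receptors (chromosome 12, 103930107 to 103953645, plus strand, GRCh38, GENCODE release 29), had 1302, 1287 and 1262 CPM in the controls and 1508, 1523 and 1483 CPM in the oeTNFRSF12A libraries. Every induced library lay above every control, and the gene rose by 17.2% (log2 fold change 0.23, SE 0.03, adjusted p = 4.83e-07 in edgeR's test). HSPA5, the BiP chaperone that also holds the stress sensors inactive, had 698, 694 and 691 CPM in the controls and 735, 737 and 764 CPM in the oeTNFRSF12A libraries. The groups did not overlap and the rise was 7.4% (log2 fold change 0.10, SE 0.03, adjusted p = 0.00533, edgeR).

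DNAJB11, a J-domain co-chaperone that hands unfolded protein to BiP, had 67.9, 59.6 and 65.4 CPM in the controls and 76.6, 77.1 and 81.2 CPM in the oeTNFRSF12A libraries. This was the steepest rise of the set (log2 fold change 0.28, SE 0.05, adjusted p = 2.61e-05, edgeR), although 3 other gene models share its exons, AC068631.1 (496 bp) and TBCCD1 (381 bp) on the opposite strand and AC068631.2 (451 bp) on the same strand. MANF, a secreted stress-induced protein that binds BiP, had 41.0, 35.5 and 42.8 CPM in the controls and 46.1, 46.7 and 48.6 CPM in the oeTNFRSF12A libraries. Its induced libraries were all above the controls, of which replicate 2 was lowest (log2 fold change 0.25, SE 0.06, adjusted p = 0.0014, edgeR). HYOU1, the HSP110-type nucleotide exchange factor of BiP with 666 bp of exon under the antisense transcript AP003392.3, increased from 160.4 ± 6.68 to 178 ± 10.8 CPM (log2 fold change 0.15), with oeTNFRSF12A replicate 3 the highest at 191 CPM and a log2 fold change of 0.10 without that library, where it was also called. DNAJC3, a co-chaperone that also inhibits PERK, increased from 82.5 ± 1.41 to 89.8 ± 2.53 CPM (log2 fold change 0.12), and its call was lost without oeControl replicate 3 (log2 fold change 0.11, edgeR adjusted p = 0.0616) or oeTNFRSF12A replicate 2 (0.09, edgeR adjusted p = 0.0972). SDF2L1, a partner of DNAJB11 in chaperone complexes, increased from 8.77 ± 0.596 to 10.5 ± 0.552 CPM (log2 fold change 0.25), a call that ended when oeControl replicate 1, oeControl replicate 2, oeTNFRSF12A replicate 1 or oeTNFRSF12A replicate 2 was left out (edgeR adjusted p = 0.0808, 0.126, 0.0658 and 0.115). CRELD2, a disulfide isomerase-like stress protein, stood at 0.14 (SE 0.07) and passed only without oeTNFRSF12A replicate 1 (0.20, edgeR adjusted p = 0.0413). DNAJB9, the J-protein ERdj4 that represses IRE1, stood at 0.09 (SE 0.07). Summed over the 9 genes, the level was 2399, 2356 and 2352 CPM in the controls and 2675, 2696 and 2705 CPM in the oeTNFRSF12A libraries, most of it from HSP90B1 and HSPA5.

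Of the 2 lectins of the calnexin cycle, which hold glycoproteins while their sugars are trimmed, 1 fell and 1 did not pass. Among all tested genes 21.2% were called higher and 21.1% lower. CANX, the membrane-bound lectin calnexin, had 1431, 1451 and 1412 CPM in the controls and 1329.8, 1320.3 and 1270.5 CPM in the oeTNFRSF12A libraries. All induced libraries lay below the controls, and the fall was small (log2 fold change -0.13, SE 0.03, adjusted p = 7.72e-04, edgeR). CALR, its soluble relative calreticulin, had 993, 938 and 946 CPM in the controls and 952, 974 and 1003 CPM in the oeTNFRSF12A libraries. Its groups overlapped and the difference did not pass (log2 fold change 0.03, SE 0.03, adjusted p = 0.523, edgeR). The number of CALR counts per CANX count, which no scaling between libraries can alter, was 0.670 ± 0.0236 in the controls and 0.748 ± 0.0381 in the oeTNFRSF12A libraries (mean ± SD, n = 3), without overlap. An exact two-sided permutation test gave p = 0.10, the smallest p that 3 against 3 libraries allow. It is 1 of 6 count ratios computed here, chosen after the values were seen, and p was 0.12 after Benjamini-Hochberg adjustment over the 6. With CANX below all controls and CALR little changed, the ranges of the single genes already forced this ratio to separate. Its test therefore adds no support to the change of CANX.

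Among the 5 disulfide isomerases 1 rose, 1 fell and 3 did not pass, with a median log2 fold change of -0.05. That is 40% called, close to the 42.3% of all tested genes (21.2% higher and 21.1% lower). P4HB, the founding disulfide isomerase and also the beta subunit of collagen prolyl 4-hydroxylase (chromosome 17, 81843159 to 81860694, minus strand, GRCh38, GENCODE release 29), had 917, 917 and 911 CPM in the controls and 792, 786 and 818 CPM in the oeTNFRSF12A libraries. The groups were well apart and the gene fell by 12.7% (log2 fold change -0.20, SE 0.03, adjusted p = 5.10e-06, edgeR), although an antisense transcript, AC145207.3, covers 529 bp of its exons. PDIA4, the isomerase ERp72, increased from 257 ± 4.35 to 275 ± 6.5 CPM (log2 fold change 0.10), and without oeControl replicate 2 its call was lost (0.09, edgeR adjusted p = 0.0646), which left 0 isomerases higher. PDIA6, which binds the sensors IRE1 and PERK, stood at -0.05 (SE 0.03, edgeR adjusted p = 0.14), while ATP6V1C2 on the opposite strand covers 1033 bp of its exons. PDIA3, the isomerase ERp57 that works with the lectins, stood at -0.02 (SE 0.03), and reads may be divided between it and its annotated pseudogenes PDIA3P1 and PDIA3P2. ELL3 on the opposite strand covers 627 bp of the PDIA3 exons. PDIA5, which acts on the disulfides of ATF6, stood at -0.08 (SE 0.07), and SEC22A on the same strand covers 490 bp of its exons. Summed over the 5 genes, the level was 2149, 2121 and 2109.6 CPM in the controls and 1993, 1986 and 2033 CPM in the oeTNFRSF12A libraries. There were 1.404 ± 0.0166 HSP90B1 counts per P4HB count in the controls and 1.885 ± 0.0648 in the oeTNFRSF12A libraries, without overlap (exact two-sided permutation p = 0.10, the smallest possible, and 0.12 adjusted over the 6 ratios). Since HSP90B1 lay above all controls and P4HB below them, this ratio had to separate. Its test therefore adds no support to the changes of the single genes.

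Degradation genes moved in both directions, and so did the EDEM family. Of 8 tested ERAD genes 2 rose, 3 fell and 3 did not pass, with a median log2 fold change of -0.02. Calls in both directions were also general, at 21.2% higher and 21.1% lower over all tested genes. EDEM2, which starts the mannose trimming that commits a glycoprotein to degradation (chromosome 20, 35115357 to 35147364, minus strand, GRCh38, GENCODE release 29), had 32.3, 31.2 and 33.5 CPM in the controls and 22.7, 23.7 and 21.9 CPM in the oeTNFRSF12A libraries. It fell by 29.5%, the largest change of the set (log2 fold change -0.50, SE 0.06, adjusted p = 2.03e-07, edgeR). EDEM3, which trims further mannoses, had 78.7, 82.9 and 79.0 CPM in the controls and 97.4, 97.5 and 91.2 CPM in the oeTNFRSF12A libraries. It rose by 18.8% with no overlap of the groups (log2 fold change 0.25, SE 0.04, adjusted p = 2.05e-05, edgeR). EDEM1, an XBP1-dependent gene that delivers substrates to the ligase, fell from 114 ± 1.53 to 105 ± 1.92 CPM (log2 fold change -0.12, SE 0.04, adjusted p = 0.00625, edgeR), and the antisense transcript AC026202.3 covers 653 bp of its exons. There were 2.49 ± 0.157 EDEM3 counts per EDEM2 count in the controls and 4.19 ± 0.0923 in the oeTNFRSF12A libraries, without overlap (exact two-sided permutation p = 0.10, the smallest possible, and 0.12 adjusted over the 6 ratios). With EDEM3 above all controls and EDEM2 below them, this ratio also had to separate, so its test adds no support.

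Among genes of the ligase complex and the derlins DERL1 rose, HERPUD1 fell and SYVN1, SEL1L and DERL2 did not pass. SYVN1, the ubiquitin ligase HRD1, stood at -0.06 (SE 0.07), and the ribosomal protein gene FAU on the same strand covers 398 bp of its exons, so its reads may be split with error. SEL1L, the scaffold that keeps the ligase stable, had 203, 201 and 205 CPM in the controls and 214, 204 and 198 CPM in the oeTNFRSF12A libraries, and its difference did not pass (log2 fold change 0.02, SE 0.03). DERL1, a derlin of the retrotranslocation channel, increased from 102 ± 2.29 to 112 ± 1.83 CPM (log2 fold change 0.14, SE 0.04, adjusted p = 0.00375, edgeR), with 396 bp of exon shared with TBC1D31 on the opposite strand. DERL2, its relative, stood at 0.10 (SE 0.05, edgeR adjusted p = 0.0975) and passed with library totals alone as the scaling (0.12, edgeR adjusted p = 0.0460). HERPUD1, a stress-induced membrane protein that recruits the ligase, had 44.4, 43.9 and 48.0 CPM in the controls and 39.3, 42.5 and 40.6 CPM in the oeTNFRSF12A libraries. It fell (log2 fold change -0.16, SE 0.05, adjusted p = 0.0161, edgeR), a call that was lost without oeControl replicate 3 (-0.12, edgeR adjusted p = 0.116) or oeTNFRSF12A replicate 1 (-0.13, edgeR adjusted p = 0.0678).

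The stress sensors moved in different directions. ERN1, which encodes the kinase and endoribonuclease IRE1 (chromosome 17, 64039142 to 64130819, minus strand, GRCh38, GENCODE release 29), had 23.2, 21.2 and 24.1 CPM in the controls and 17.9, 16.4 and 19.0 CPM in the oeTNFRSF12A libraries. Each induced library was below each control, a fall of 22.3% (log2 fold change -0.36, SE 0.07, adjusted p = 2.32e-04, edgeR). ATF6, the sensor that is released by cleavage in the Golgi (chromosome 1, 161766294 to 161964070, plus strand, GRCh38, GENCODE release 29), had 122, 120.1 and 117 CPM in the controls and 135, 132 and 136 CPM in the oeTNFRSF12A libraries. It rose by 12.3% (log2 fold change 0.17, SE 0.03, adjusted p = 3.55e-04, edgeR), also without overlap. EIF2AK3, which encodes PERK and is not in the set, went from 25.8 ± 0.657 to 27.2 ± 1.79 CPM and did not pass (log2 fold change 0.07, SE 0.06, adjusted p = 0.351, edgeR).

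The number of ATF6 counts per ERN1 count was 5.24, 5.65 and 4.86 in the controls and 7.55, 8.04 and 7.17 in the oeTNFRSF12A libraries. There were 1.13 ± 0.0625 EIF2AK3 counts per ERN1 count in the controls and 1.54 ± 0.173 in the oeTNFRSF12A libraries. Both ratios were higher without overlap (exact two-sided permutation p = 0.10 each, the smallest possible, and 0.12 adjusted over the 6 ratios). For ATF6 per ERN1 that outcome was fixed in advance, because ATF6 lay above all controls and ERN1 below them. The ranges of the single genes also fixed EIF2AK3 per ERN1. EIF2AK3 had 25.3 to 26.5 CPM in the controls and 25.1 to 28.4 CPM in the oeTNFRSF12A libraries, so the fall of ERN1 alone separated the ratio. Neither test adds support to the changes of the single genes. The ratio of ATF6 to EIF2AK3 counts overlapped, at 4.64 ± 0.213 and 4.96 ± 0.380 (exact two-sided permutation p = 0.40, and 0.40 adjusted). XBP1, the transcription factor downstream of IRE1 and itself a target of ATF6, had 69.7, 71.2 and 72.0 CPM in the controls and 60.8, 61.9 and 65.3 CPM in the oeTNFRSF12A libraries. It fell with no overlap (log2 fold change -0.18, SE 0.04, adjusted p = 0.00141, edgeR). Reads may be divided between XBP1 and its annotated pseudogene XBP1P1.

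The translocon, the channel and its accessory proteins, has 3 genes in the set. Of these 2 rose by small amounts, 0 fell and 1 did not pass, with a median log2 fold change of 0.09. Among all tested genes 21.2% were called higher and 21.1% lower. SEC61B, the beta subunit of the channel, had 45.0, 44.1 and 47.0 CPM in the controls and 52.6, 49.6 and 51.6 CPM in the oeTNFRSF12A libraries, and the rise was called (log2 fold change 0.18, SE 0.05, adjusted p = 0.0039, edgeR). SSR1, the alpha subunit of the translocon-associated TRAP complex, increased from 217 ± 3.55 to 231 ± 2.69 CPM (log2 fold change 0.09), but without oeControl replicate 1 (0.08, edgeR adjusted p = 0.0920) or oeTNFRSF12A replicate 2 (0.08, edgeR adjusted p = 0.0784) its call was lost. In the latter case 1 translocon gene was called. Reads may be divided between SSR1 and its annotated pseudogenes SSR1P1 and SSR1P2. SEC61A1, the pore-forming subunit, stood just outside the threshold (log2 fold change 0.07, SE 0.03, adjusted p = 0.0536, edgeR) and passed with library totals alone (0.09), with no filter on low counts (0.08) or without oeControl replicate 1 (0.09), while RUVBL1 on the opposite strand covers 344 bp of its exons.

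Outside the set, 106 further genes of the same pathway were counted in 7 lists, and 104 could be tested. Of these 25 rose and 20 fell, or 43.3%, close to the 42.3% of all tested genes, and their median log2 fold change was 0.01. For each list the shares to compare are those over all tested genes, 21.2% higher and 21.1% lower. The PERK and ATF4 list had 5 of 13 higher and 3 lower (median 0.07). The phosphatase subunits that reverse PERK signalling rose, PPP1R15B from 116 ± 3.21 to 135 ± 2.03 CPM (log2 fold change 0.22, SE 0.03, adjusted p = 2.05e-05, edgeR) and PPP1R15A by 0.23 on the log2 scale, as did CEBPG, a partner of ATF4 (0.24). ATF4 itself (-0.13) and DDIT3, the stress-induced factor CHOP (log2 fold change -0.47, SE 0.10, adjusted p = 5.79e-04, edgeR), fell. The other called genes of this list were ASNS (0.23) and EIF2S1 (0.14), which rose, and CEBPB (-0.28), which fell. PPP1R15A, ASNS, EIF2S1 and CEBPB were chosen after their values were seen.

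In the list of ATF6 relatives, their proteases and BiP regulators 1 of 9 rose and 0 fell (median 0.04). The shares over all tested genes were 21.2% higher and 21.1% lower. The gene that rose was CREB3, a Golgi-cleaved relative of ATF6 (log2 fold change 0.27, SE 0.05, adjusted p = 1.57e-04, edgeR). ATF6B, the closest relative of ATF6, stood at 0.09 (SE 0.06) and did not pass. The Golgi proteases that cut ATF6, MBTPS1 and MBTPS2, stood at 0.04 and -0.07 without passing and were chosen after their values were seen.

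The ERAD partners had 9 of 18 higher and 4 lower (median 0.09), beside 21.2% higher and 21.1% lower over all tested genes. The segregase VCP, which pulls substrates from the membrane, increased from 377 ± 8.53 to 443 ± 11.5 CPM (log2 fold change 0.23, SE 0.03, adjusted p = 1.26e-06, edgeR). Its cofactors NPLOC4 (0.27) and UFD1 (0.23) rose, and so did the membrane recruiters FAF2 (0.20) and AUP1 (0.28). Among the genes that fell were the lectin OS9 (-0.16), the mannosidase MAN1B1 (-0.23) and FAM8A1 (-0.18), a component of the HRD1 complex. Apart from VCP and NPLOC4, which the naming rule takes, these genes were chosen after their values were seen.

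The other disulfide and prolyl isomerases had 3 of 21 higher and 6 lower (median -0.03), with 5 higher when library totals alone were used or no filter was applied. Beside this list and those that follow stand the shares over all tested genes, 21.2% higher and 21.1% lower. ERO1A, the oxidase that recharges the disulfide isomerases, fell from 197 ± 0.386 to 148 ± 2.31 CPM (log2 fold change -0.41, SE 0.03, adjusted p = 1.97e-10, edgeR), and TXNDC12, a small thioredoxin-like protein, changed by -0.22. FKBP10, a prolyl isomerase that helps collagen fold and was chosen after its value was seen, changed by -0.76 (SE 0.14). Its level was low, 5.23 ± 0.294 CPM in the controls and 3.08 ± 0.469 CPM in the oeTNFRSF12A libraries. The 3 genes of this list that rose were TMX3 (0.25), DNAJC10 (0.15) and TMX2 (0.12). The list of glucosidases, glycan sensors and cargo receptors had 1 of 11 higher and 3 lower (median -0.01), the latter being KDELR1 (-0.20) and KDELR3 (-0.15), receptors that return chaperones to the ER, and MLEC, the lectin malectin (-0.13). KDELR3 was chosen after its value was seen. Of 11 oligosaccharyltransferase genes 2 rose and 0 fell (median 0.00), the ribophorins RPN1 (0.11) and RPN2 (0.12). The remaining translocon, signal recognition and signal peptidase genes had 4 of 21 higher and 4 lower (median 0.03), with SPCS3, a signal peptidase subunit, at 0.27 and TRAM1, a translocon-associated membrane protein, at -0.34. SEC61G, the gamma subunit of the channel, fell from 51.5 ± 0.811 to 46.7 ± 1.32 CPM (log2 fold change -0.14, SE 0.05, adjusted p = 0.0158, edgeR) and was chosen after its value was seen. In that list 7 were higher with library totals alone, and 1 was lower without oeControl replicate 1 and 2 with DESeq2.

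**Figure D4:**
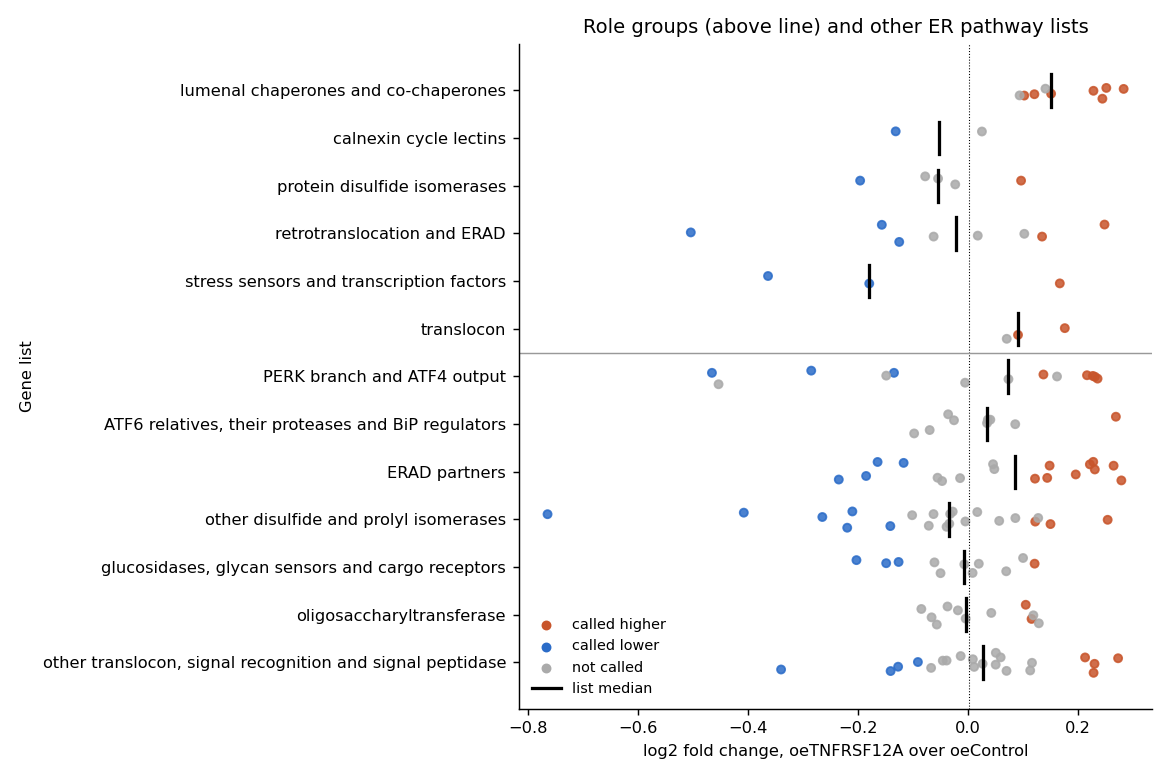
Log2 fold change of each tested gene in the 6 role groups of the set (above the grey line) and in 7 further pathway lists, coloured by call at an adjusted p under 0.05, with black bars for list medians and a dotted line for the median of all tested genes. The lumenal chaperones have all 9 genes to the right of 0 with a median of 0.15, and the medians of the other role groups run from -0.18 to 0.09.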

How the data were processed

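Per the labels' protocols, RNA was extracted with TRIzol, captured with oligo(dT) beads, fragmented, copied to cDNA and amplified. The deposited values are expected counts per gene symbol, held as whole numbers. RSEM 1.3.1, HISAT2 2.2.1 and Bowtie2 2.4.5 appear without roles in the submitters' processing notes, as do GRCh38 and hg38. No source used here states annotation, strand setting or filters, so overlapping genes on opposite strands cannot be told apart. The table's 19396 rows include 1 without a gene symbol, with 0 counts, which was dropped.

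Counts were rounded (all were whole) and analysed in R 4.3.3 with edgeR 4.0.16. filterByExpr (minimum count 10) kept 12758 genes, TMM factors were applied, and a robust quasi-likelihood F test compared the groups with Benjamini-Hochberg adjustment over all tested genes, calling at 0.05. SE is the log2 fold change over the root of F. About 18 counts make 1 CPM. PCR copies are not independent molecules, so counting limits cover counting error only. Exon lengths (union of basic transcripts), overlaps and positions come from GENCODE release 29 on GRCh38, which need not be the authors' annotation, and promoters from RefSeq (GRCh38.p14, 28 of 31 matched). Protein sequences were not analysed here.

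The genes and lists were chosen with earlier results of these data known. The naming rule took every gene of the set, the 2 called genes with the lowest p in each further list, and EIF2AK3, ATF4, DDIT3, ATF6B, ERO1A and TNFRSF12A. The 4 marker lists covered colorectal epithelial, stromal, leukocyte and endothelial genes; the leukocyte list summed to 1.47 to 2.16 CPM and the endothelial list to 0.647 to 1.78 CPM per library. Replicates were compared first: chi-square statistics per gene were 1.61 to 3.35 within groups and 17.7 to 19.9 between them, so all 6 libraries were counted. On simulated counts for the same 12758 genes, the fit recovered 35 of 50 genes changed by 1.2-fold, 46 of 50 by 1.5-fold, 48 of 50 by 2-fold and 49 of 50 by 4-fold, with 3 false calls. The simulation gave every gene the same spread between libraries, the common value of 2.83% fitted to these 6 libraries. It held no differences in spread between genes and no added variation between cultures. These figures therefore do not carry over to the real calls. Alternatives were DESeq2 1.42.0, its size factors, upper-quartile factors, library totals, no filter, a minimum count of 50, a replicate block and leaving out each library.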

Additional observations from a re-analysis of the deposited data

How the results depend on the processing

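Of the 20 genes of the set that were called, 15 kept their direction and call in all 13 alternative fits. The others, DNAJC3, SDF2L1, PDIA4, HERPUD1 and SSR1, kept their direction and lost the call in at least 1. The number of genes of the set called higher was 10 to 13 and the number called lower 6 to 7 when each library was left out in turn. Other settings gave 11 to 15 higher and 6 to 7 lower, against 13 and 7. DESeq2 gave 11 and 6, without DNAJC3 (adjusted p = 0.0574), SDF2L1 (0.167) and HERPUD1 (0.0884). Over all genes 4506 to 5298 were called when a library was left out, and 3757 (DESeq2) to 5616 (no filter) under other settings, against 5402. The sign of SEL1L, which was never called, turned without oeTNFRSF12A replicate 1, and its log2 fold change ranged from -0.0134 to 0.0450 over the fits that left out a library. The median log2 fold change of the set stayed between 0.07 and 0.11 in all fits, and the median of all genes between -0.01 and 0.02. Replicate numbers did not pair the libraries: same-numbered libraries deviated together with correlations of -0.0193, 0.0167 and 0.0350 over 12758 genes. With the number as a replicate block 13 genes of the set were higher and 7 lower, 5396 were called in all, and no call in the set changed. At this depth a difference of a few counts lies within sampling noise.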
